A study of Mus musculus and Rattus norvegicus with 80 samples.

Results

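UID-4915 and UID-13421 are 2 of the 17019 annotated LINE-1 (L1) loci of the mouse whose reads were counted. They were chosen by their reads in these same libraries, which earlier results had shown to be highest in livers, and by their position in the same orientation as a gene. L1 elements are retrotransposons that copy themselves through an RNA intermediate. Full-length copies carry their own promoter, but a copy inside a gene can also be transcribed passively as part of the RNA of that gene, and counts of reads do not separate these sources. Both loci were on the list of full-length elements that are not intact.

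The RNA was cytoplasmic and polyadenylated, from C57BL/6 mice with no treatment named, and was sequenced from paired ends with the strand kept. Males gave 12 livers and 12 testes, with 3 of each at 22.3, 12.8, 7.6 and 1.9-3.6 mo. They also gave 6 brains, 3 from the mice of 12.8 mo and 3 from those of 7.6 mo, and 5 lungs, of which 3 came from the older and 2 from the younger of these groups. Females gave 9 brains, 9 lungs and 9 ovaries (3 at 2.2-3.2 mo, 4 at 8-8.7 mo, 2 at 16.5 mo) and 6 uteri (1, 3 and 2 at the same ages). No female liver and no male mouse of 16.5 mo was sampled. Each library is a bulk organ piece of a mouse, so fewer cells of a type and less RNA per cell cannot be told apart, and the counts used here are of L1 loci only, so organ labels could not be checked against marker genes. Libraries were read with 100 bp (Illumina) or 150 bp (DNA nanoball) reads. The labels do not say which, so read length was not tested. Covered bases per read of UID-4915 reached 149.5 (brain of mouse 1535), 113.6 (brain of 1337), 107.6 (uterus of 1534) and 104.7 (brain of 1338). Reads of 100 bp cannot cover that much, so these female libraries held longer reads. The highest value in a male library was 83.5, from which its read length cannot be told.

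UID-13421 lies on the minus strand of chromosome 4 (GRCm38 96650144 to 96655085) in intron 4 of Cyp2j5 (ENSMUSG00000052520.7, 96628773 to 96664154, 9 exons). Cyp2j5 encodes a cytochrome P450 of liver and kidney that oxidises arachidonic acid to epoxides. The intron is 17143 bp long, and the element begins 3506 bp after exon 4 and ends 8695 bp before exon 5. The counting window of the locus holds no base of an annotated exon, so a spliced Cyp2j5 mRNA would put no read in it. The coding exons on both sides of this intron are printed to show what flanks the counted interval, in the sense of the gene, with the 12 bases next to the intron in capitals (GENCODE M21, exon 4 at chr4:96658592-96658752 and exon 5 at chr4:96641272-96641448, minus strand).
Cyp2j5 exon 4: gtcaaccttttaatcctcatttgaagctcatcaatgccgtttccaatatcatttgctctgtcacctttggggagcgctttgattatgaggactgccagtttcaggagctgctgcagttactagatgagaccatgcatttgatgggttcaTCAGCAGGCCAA
Cyp2j5 exon 5: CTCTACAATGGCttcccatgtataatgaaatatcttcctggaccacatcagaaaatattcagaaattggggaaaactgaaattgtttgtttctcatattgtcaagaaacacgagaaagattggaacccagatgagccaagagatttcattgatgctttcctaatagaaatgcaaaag

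UID-4915 lies on the plus strand of chromosome 18 (GRCm38 60302750 to 60307745). Its first 267 bp overlap the last part of exon 2 of F830016B08Rik (ENSMUSG00000090942.1, 60293380 to 60303016), behind the stop codon and therefore in the 3′ UTR. F830016B08Rik belongs to the interferon-inducible GTPases, a family that is transcribed after interferon signalling and acts against intracellular pathogens. The other 4729 bp lie downstream of the GENCODE gene model, while the RefSeq model of the gene runs on to position 60303823. The intron of a long non-coding gene on the opposite strand, AC132320.1, spans the element.

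Libraries held 8.45 M to 51.4 M mapped reads and 9567 to 109959 L1 reads, and livers 17.9 M to 41.8 M and 15733 to 51029. Levels are given as RPM, the reads of a locus in a library scaled to 1 M mapped reads. The liver of mouse 1110 had 376 RPM of L1 reads in all, against 1091 to 1640 RPM in the other livers, and its depth rests on a single locus. The depth of the 12.8 mo liver of mouse 900 was tied between 26.2 M, which was used, and 13.1 M. The libraries of 12.8 mo were counted over narrower windows (5796 against 6696 bp for UID-4915 and 5742 against 6642 bp for UID-13421), so levels of that age were also given per kb of window. At 22.3 mo, the depth columns that fitted 5 of the 6 liver and testis libraries carried another mouse number than the labels, so the pairing of organs is uncertain at that age.

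UID-4915 was read in all 68 libraries, and its highest levels were in livers. In livers of 1.9-3.6 mo its level was 102, 33.3 and 118 RPM (3806, 1395 and 4160 reads). In livers of 7.6 mo it was 129, 170 and 137 RPM (2713, 4064 and 2455 reads). In livers of 12.8 mo it was 48.3, 41.8 and 61.5 RPM (1048, 1097 and 1502 reads). The groups of 7.6 and 12.8 mo did not overlap, also not per kb of window, where they lay at 19.3 to 25.4 and 7.22 to 10.6 RPM per kb. Between these ages 40.4% of the 99 loci tested in livers were called by edgeR, and the share of loci without overlap was not counted. At the smaller of its tied depths the liver of mouse 900, at 41.8 RPM here, would be at 83.7 RPM, the highest of its age and still below those of 7.6 mo. In livers of 22.3 mo it was 61.3, 1.44 and 138 RPM (2415, 60 and 5056 reads). The library with 60 reads is the liver labelled mouse 830, far below the next lowest liver at 33.3 RPM. The means were 84.3 ± 44.9, 145 ± 21.9, 50.5 ± 10.0 and 67.1 ± 68.7 RPM (SD, n = 3) from the youngest to the oldest mice. Over the 12 livers the median was 81.6 RPM, and it was 102 RPM without mouse 830.

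**Figure D1:**
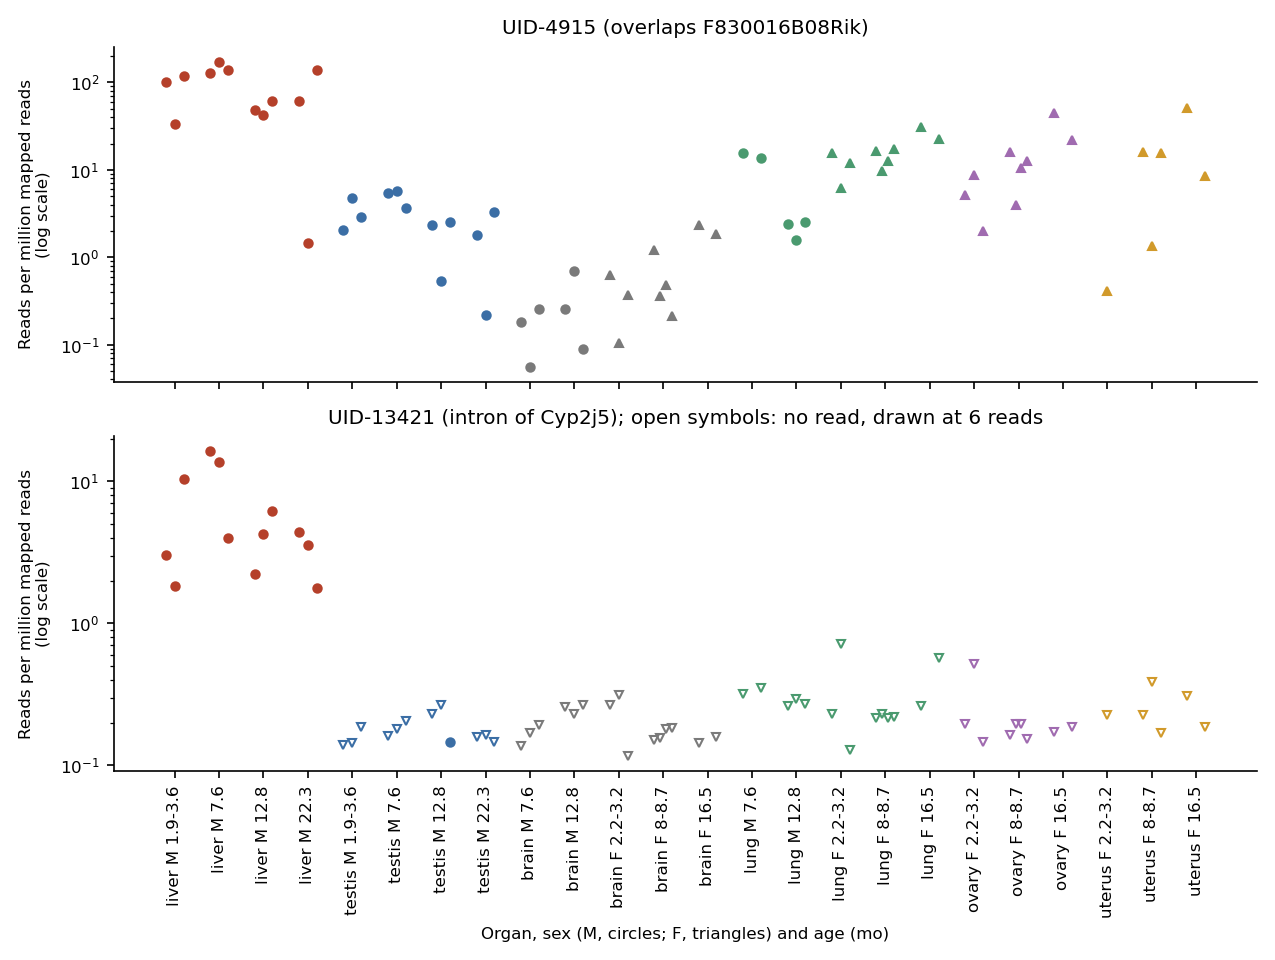
Level of UID-4915 (top) and UID-13421 (bottom) in each of the 68 mouse libraries, in RPM on a log axis, by organ, sex and age in mo. Filled circles are males and filled triangles females, and open inverted triangles mark libraries of either sex without a read, drawn at the level that 6 reads would give. UID-4915 was present in all organs with 8 livers above every other library, and UID-13421 had reads in the 12 livers and in 1 testis.

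The locus was among the most abundant L1 sequences of the liver. It took 2.95 to 10.8% of all L1 reads in 11 livers and ranked 4th to 7th among all loci there. In the liver of mouse 830 it took 0.119% and ranked 20th. A high rank was not particular to livers. UID-4915 ranked 4th to 13th in female lungs, 7th to 45th in male lungs, 4th to 17th in ovaries and 4th to 55th in uteri. Its ranks were 28th to 782nd in testes and 37th to 646th in brains. Together the loci UID-4915 and UID-13421 took 7.21% of all L1 reads of the 12 livers.

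Outside the liver, UID-4915 was at intermediate levels in lungs, uteri and ovaries. The medians were 13.2 RPM over 14 lungs (1.57 to 31.1), 12.1 RPM over 6 uteri (0.411 to 50.8) and 10.4 RPM over 9 ovaries (1.97 to 44.9), and these ranges overlap widely, so no order among these organs is beyond their spread. Testes had a median of 2.71 RPM (0.218 to 5.78, n = 12) and brains of 0.362 RPM (0.0561 to 2.31, n = 15). The ranges of testes and brains overlap as well. Livers did not stand clear of all other libraries, since 8 of 12 were above the highest one outside the liver, the uterus of mouse 1004 at 50.8 RPM. The other 4 were the liver of mouse 830, that of mouse 1110 and 2 livers of 12.8 mo, and 9 of 12 livers were above it per kb of window, or in RPM with the smaller tied depth of mouse 900.

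Within the mice that gave several organs, paired by their labels, the liver was the higher organ each time. The ratio of liver to testis was 6.59 to 78.7 over the 12 mice as labelled (median 31.7), and its log2 value was 4.75 ± 1.06 (SD). The highest ratio, in mouse 900, rests on the larger of the tied depths. The ratio of liver to lung was 8.37 to 26.7 over 5 mice (median 19.9). The ratio of liver to brain was 60.8 to 702 over the 3 mice whose brain held more than 6 reads (median 534), and the other 3 male brains held 2, 2 and 6 reads. The lowest ratio to testis was that of the libraries labelled mouse 830, which were both low. By the depth columns, the liver labelled mouse 830 (1.44 RPM) goes with the testis labelled mouse 829 (1.81 RPM), and there the liver is the lower. The liver labelled mouse 829 (61.3 RPM) then goes with the testis labelled mouse 830 (0.218 RPM). No test is given for the liver against other organs, because the loci had been picked for that difference.

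UID-13421 had reads in all 12 livers and in 1 of the 56 other libraries. In livers of 1.9-3.6 mo its level was 3.05, 1.84 and 10.4 RPM (114, 77 and 368 reads), and at 7.6 mo it was 16.3, 13.7 and 4.02 RPM (343, 328 and 72 reads). In livers of 12.8 mo it was 2.21, 4.27 and 6.22 RPM (48, 112 and 152 reads), and at 22.3 mo it was 4.42, 3.55 and 1.78 RPM (174, 148 and 65 reads). The liver of mouse 900 would be at 8.54 RPM instead of 4.27 at the smaller of its tied depths. All 4 ages overlap, with means of 5.10 ± 4.65, 11.3 ± 6.48, 4.24 ± 2.00 and 3.25 ± 1.35 RPM (SD, n = 3) from the youngest to the oldest. The liver of mouse 830, the lowest for UID-4915, was not low for UID-13421, whose lowest level was in the liver of mouse 831, also of 22.3 mo, where UID-4915 was high. The only library with reads outside the liver was the testis of mouse 901, with 4 reads (0.146 RPM), against 152 in the liver of that mouse.

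Mates were counted apart, and 10 of the 13 libraries with reads of UID-13421 held an even number of them, so the limit that a count of 0 allows was taken as 3 read pairs, or 6 reads. It covers counting error only. In the 55 libraries without a read this limit was at most 0.71 RPM. Against it the liver was at least 9.57-fold higher than the testis in 11 mice, at least 8.64-fold higher than the brain in 6 mice and at least 8.52-fold higher than the lung in 5 mice, these being the lowest bounds of any mouse. The highest bounds were 102, 118 and 51.2. Ovaries and uteri come from mice without a sampled liver, and there the limits were 0.146 to 0.513 RPM and 0.17 to 0.387 RPM, below the lowest liver level of 1.78 RPM.

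Coverage of the windows has to be read beside the number of reads. UID-4915 had 1048 to 5056 reads in the livers without mouse 830, and UID-13421 had 48 to 368 in the 12 livers. Their coverage is therefore not compared at like numbers of reads. In 11 livers, reads covered 97.4 to 100% of the UID-4915 window. The annotated exon of F830016B08Rik holds 967 bp of the 6696 bp window, so in the 8 of these livers with that window at least 5680 bases were covered outside the exon, and at least 4873 bases lay beyond the end of the RefSeq model. In the 3 livers of 12.8 mo, at least 5081 bases were covered outside the 567 bp of exon in their window. In the liver of mouse 830, 22.1% of the window was covered, or 1480 bases, of which at least 513 lay outside the exon. The reads therefore were not confined to the exon in any of the 12 livers, and in 11 of them they ran through the element. Where in the window the covered bases of the liver of mouse 830 lay is otherwise not known. Outside the liver, 47 of 56 libraries also covered more bases than the exon holds. In 40 of them, bases beyond the end of the RefSeq model were covered.

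In male lungs of 7.6 mo, a similar number of reads covered less of the window than in other organs or in female lungs. The 7.6 mo male lungs held 290 and 234 reads and covered 39.6 and 35.2% of the window. Female lungs of 8-8.7 mo, with 253 to 467 reads, covered 73.0 to 95.3%, and the testis of mouse 1303, with 192 reads, covered 86.3%. In the 12.8 mo male lungs, 32 to 56 reads covered 17.5 to 25.6%. The female lung with 53 reads covered 49.3%, and the liver of mouse 830, with 60 reads, covered a share like that of the 12.8 mo male lungs. These are single values without a test. Longer reads cover more bases at the same number of reads, and read length was not known for these lungs. Shares of the 12.8 mo lungs are also of a narrower window. In 7.6 mo male lungs the covered bases still numbered 2651 and 2360, more than the 967 bp of exon.

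**Figure D2:**
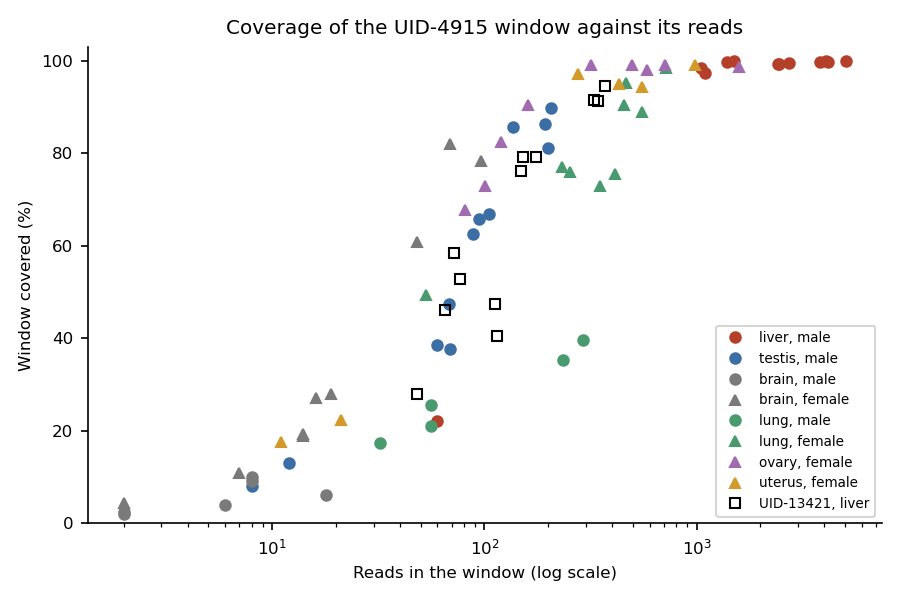
Share of the counting window covered by reads (%) against the number of reads (log axis) in each library, with UID-4915 as filled symbols by organ and sex and UID-13421 in livers as open squares. The 11 livers other than that of mouse 830 lie at 97.4 to 100%, and the male lungs with 290 and 234 reads lie at 39.6 and 35.2%, below ovaries and female lungs with similar reads.

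UID-13421 was covered in part in most livers. Coverage was 27.9 to 94.5% with a median of 67.4%, and the 3 livers with more than 300 reads covered 91.2 to 94.5%. In the testis of mouse 901, 4 reads covered 3.47%. Because the window lies inside the intron, all covered bases are intronic in the GENCODE model. Per kb of window, UID-4915 was above UID-13421 in 11 livers by 7.85- to 77.2-fold, and in the liver of mouse 830 the ratio was 0.402.

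Age was compared in the livers in a single fit of all loci with at least 10 reads in 3 livers, of which there were 99. From the youngest livers to those of 7.6 mo, no locus passed an adjusted p of 0.05 (0% of 99, edgeR quasi-likelihood test with Benjamini-Hochberg adjustment), 12 had an unadjusted p under 0.05, and DESeq2 called 0. The log2 fold change of UID-4915 was 0.79 ± 0.89 (SE, adjusted p = 0.76) and that of UID-13421 was 1.15 ± 0.68 (adjusted p = 0.384). Neither change was larger than the spread between these livers. Scaled by L1 reads, the log2 change of UID-4915 was 0.03, and without mouse 1110 it was 0.40. That of UID-13421 was 2.21 without mouse 1111, 0.38 scaled by L1 reads, and 0.42 by TMM or DESeq2.

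Between 7.6 and 12.8 mo, 40.4% of the loci passed, 23 higher and 17 lower at 12.8 mo (4 and 10 without the 12.8 mo liver of mouse 899), and neither UID-4915 nor UID-13421 was among them. Their log2 fold changes were -1.52 ± 0.91 (edgeR adjusted p = 0.195) and -1.42 ± 0.69 (adjusted p = 0.117). With the window length in the model, they were -1.32 (adjusted p = 0.276) and -1.21 (adjusted p = 0.179). The call of UID-4915 turned on the liver of mouse 830, which is in neither group but sets the common spread: without it the adjusted p was 0.0193 in edgeR, at the same fold change. Fitted with only the livers of these 2 ages, both loci passed, at the same fold changes (edgeR adjusted p = 6.63e-05 and 0.00821). The 40.4% is of the fit of all livers. The share of loci called is not given for the fit without mouse 830 or with 2 ages, so whether these calls are particular to the loci is not known. Scaled by TMM on L1 reads, the log2 values were -0.58 and -0.43, and with the smaller tied depth of mouse 900 they were -1.17 and -1.01 (edgeR adjusted p = 0.266 for both). Age and the narrower windows cannot be told apart without that model.

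Between 7.6 and 22.3 mo, 2.02% of the loci passed, both higher at 22.3 mo, and again neither UID-4915 nor UID-13421 did. The log2 fold change was -1.12 ± 0.90 for UID-4915 (edgeR adjusted p = 0.62) and -1.80 ± 0.70 for UID-13421 (adjusted p = 0.198). That of UID-4915 was -0.54 without mouse 830 and -2.21 without mouse 831 (edgeR adjusted p = 0.752 and 0.453). The exact permutation test over all splits of the 12 livers into 4 age groups gave p = 0.394 for UID-4915 and p = 0.251 for UID-13421 (smallest possible p 6.49e-05). Fitted with only the 2 ages, UID-13421 passed between 7.6 and 22.3 mo (edgeR adjusted p = 0.0437), so the calls depend on which livers set the spread. That fit also called more loci in all than the fit with 2.02% (the count is given at the end).

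**Figure D3:**
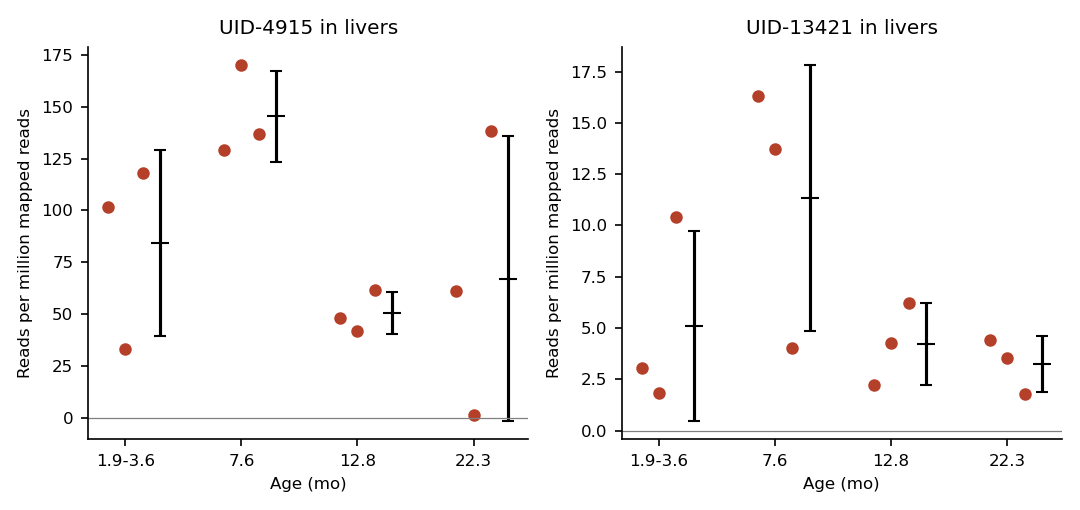
Level of UID-4915 (left) and UID-13421 (right) in the 12 livers by age in mo, in RPM on linear axes, with points for livers and bars for mean ± SD (n = 3 each). At 22.3 mo the UID-4915 livers run from 1.44 to 138, a wider spread than at any other age, while those of UID-13421 run from 1.78 to 4.42.

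The liver and testis libraries labelled mouse 830 were both the lowest of their organ for UID-4915. The depth columns that fitted them carried different mouse numbers, 829 for the liver and 831 for the testis. By those numbers they come from different mice, and the relations of liver and testis below were computed by the labels only. The testis held 8 reads (0.218 RPM), against 12 to 206 reads in the other 11 testes. Over the 12 mice as labelled, the log2 levels of liver and testis had a Pearson r of 0.81 (permutation p = 0.0049, adjusted over 5 relations 0.0245) and a Spearman rho of 0.67 (permutation p = 0.0203, adjusted 0.0508). Without the mice farthest from the median liver level, 830 and 1110, r was 0.815. Without mouse 830 alone, r was 0.508 (permutation p = 0.104). Per 1000 L1 reads, r was 0.83 (permutation p = 0.00016) and rho 0.825. Within age groups r was 0.736 (exact permutation p = 0.151), or 0.85 per 1000 L1 reads (exact permutation p = 0.0787), 0.0197 without mouse 830 and -0.151 without the 22.3 mo mice. Without the 22.3 mo mice, whose numbers are uncertain, the overall r was 0.489 (exact permutation p = 0.178). Over the 12 livers, UID-4915 and UID-13421 had r = 0.311 (permutation p = 0.355) and rho = 0.336 (permutation p = 0.286). Their r was 0.504 without mouse 830 (permutation p = 0.116) and 0.723 without the 22.3 mo mice (exact permutation p = 0.0357).

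**Figure D4:**
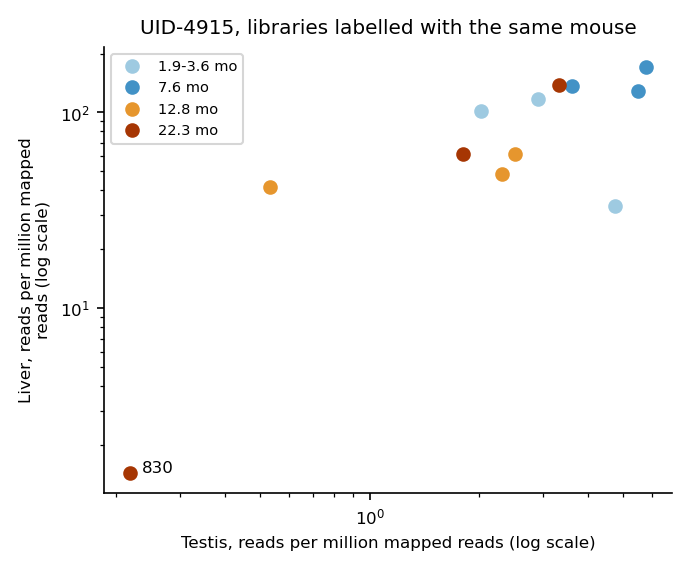
UID-4915 in the liver (y) against the testis (x) of libraries labelled with the same mouse, in RPM on log axes, coloured by age. The point labelled mouse 830 lies at 1.44 in liver and 0.218 in testis, apart from the other 11, and the depth columns of its 2 libraries carried different mouse numbers (829 and 831).

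In testes, UID-4915 was at 2.03, 4.74 and 2.91 RPM at 1.9-3.6 mo and at 5.49, 5.78 and 3.62 RPM at 7.6 mo. It was at 2.31, 0.532 and 2.52 RPM at 12.8 mo and at 1.81, 0.218 and 3.33 RPM at 22.3 mo. The testes of 7.6 mo did not overlap those of 12.8 mo, as in the liver, with 0.54 to 0.863 against 0.0918 to 0.434 RPM per kb of window. The male lungs of 7.6 mo (15.4 and 13.6 RPM) were likewise above those of 12.8 mo (2.42, 1.57 and 2.52 RPM), also per kb of window (2.04 to 2.30 against 0.27 to 0.435). The depths of these 12.8 mo lungs rest on 8 of 19, 9 of 22 and 8 of 22 loci listed for them, and are less certain. The share of all loci separated in this way was not counted in testes or lungs. Whether the separation is particular to UID-4915 is therefore not known. Male brains were at 0.184, 0.0561 and 0.257 RPM at 7.6 mo and at 0.256, 0.688 and 0.089 RPM at 12.8 mo, and overlapped.

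In females, the level of UID-4915 in RPM was highest in the oldest mice in ovary, lung and brain. Ovaries were at 5.17, 8.64 and 1.97 RPM at 2.2-3.2 mo, at 16.0, 3.91, 10.4 and 12.6 RPM at 8-8.7 mo, and at 44.9 and 22.0 RPM at 16.5 mo. Lungs were at 15.7, 6.27 and 11.8 RPM, then 16.3, 9.77, 12.7 and 17.1 RPM, then 31.1 and 22.3 RPM. Brains were at 0.622, 0.105 and 0.37 RPM, then 1.21, 0.362, 0.483 and 0.212 RPM, then 2.31 and 1.83 RPM. In each of these organs both mice of 16.5 mo were above all 7 younger ones in RPM. The ratio of the means at 16.5 to 2.2-3.2 mo was 6.35 in ovary, 2.37 in lung and 5.66 in brain. The share of all loci with the oldest mice on top was not counted. Per 1000 L1 reads both mice of 16.5 mo were also above all younger ones in ovary and brain, while in lung 1 of the 16.5 mo mice, at 17.7, was below 3 younger ones at 18.3 to 22.2. In uteri the level was 0.411 RPM in the single young library, 16.1, 1.35 and 15.7 RPM at 8-8.7 mo, and 50.8 and 8.57 RPM at 16.5 mo, so these ages overlapped.

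These age comparisons in females were added after the values had been seen, and they did not pass across all loci. In ovary, 0 of 242 loci tested were called between 2.2-3.2 and 16.5 mo by edgeR (0%, 62 at an unadjusted p under 0.05), and DESeq2 called 10. UID-4915 rose in that DESeq2 fit by a log2 value of 1.43 (adjusted p = 0.0357), while in edgeR its log2 fold change was 2.68 ± 0.68 (adjusted p = 0.0876). In lung, 4.20% of 119 loci were called, and UID-4915 had a log2 fold change of 1.24 ± 0.53 (edgeR adjusted p = 0.215). In brain, 0 of 199 loci were called by edgeR (0%, 35 at an unadjusted p under 0.05) and 0 by DESeq2, and UID-4915 had a log2 fold change of 2.47 ± 0.75 (edgeR adjusted p = 0.177). With TMM, L1 reads or DESeq2 as scaling, the log2 change was 1.46, 2.47 and 1.43 in ovary, 0.68, 0.84 and 0.57 in lung, and 1.49, 1.95 and 1.54 in brain. The edgeR adjusted p passed in ovary without mouse 1324 or 1325, both of 8-8.7 mo (0.0492 and 0.0477), and in brain without mouse 1534, one of the young mice compared (0.0391, at a log2 change of 2.97). The exact permutation test over the 3 female age groups gave p = 0.0421 in ovary, 0.0579 in lung and 0.0492 in brain, each 0.0579 after adjustment over the 3 organs. Organs come from the same 9 mice and are not independent.

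**Figure D5:**
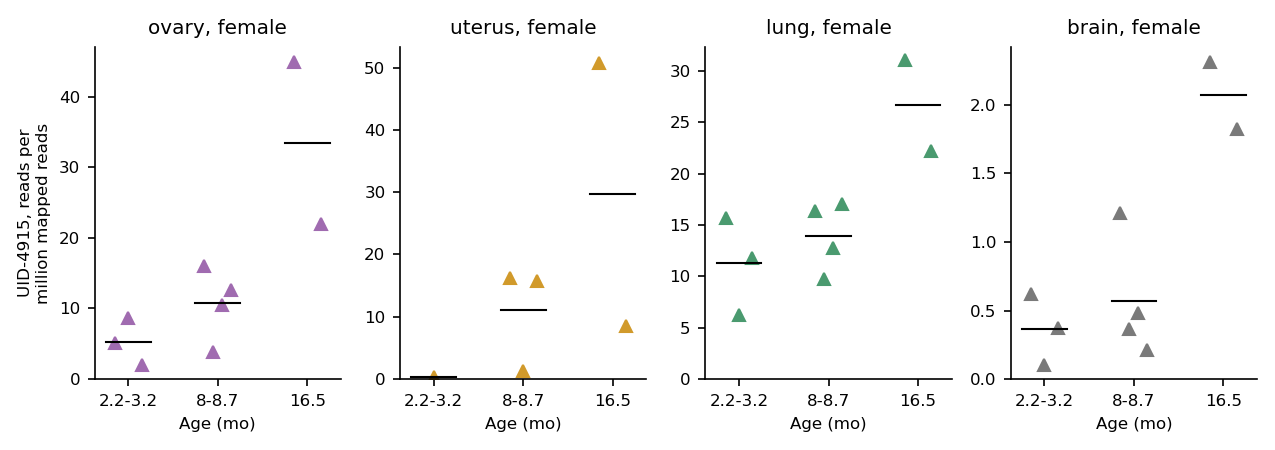
UID-4915 in ovary, uterus, lung and brain of female mice by age in mo, in RPM on linear axes that differ between panels. Triangles are libraries and horizontal lines are means, and in RPM both 16.5 mo mice lie above all younger ones in ovary, lung and brain but not in uterus. Per 1000 L1 reads this does not hold in lung.

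Between the female organs of the same mouse, ovary and lung had r = 0.672 (exact permutation p = 0.0466, adjusted 0.0777) and rho = 0.833 (exact permutation p = 0.00827, adjusted 0.0413) over 9 mice. Within age groups r was 0.149 (exact permutation p = 0.778), so the relation was not shown within ages. Per 1000 L1 reads r was 0.473 (exact permutation p = 0.194) and rho 0.25 (exact permutation p = 0.521). Ovary and brain had r = 0.635 (exact permutation p = 0.0663) and rho = 0.633 (exact permutation p = 0.076), and r = 0.0232 within age groups. Ovary and uterus, over 6 mice, had r = 0.90 (exact permutation p = 0.0208, adjusted 0.0521) and rho = 0.771 (exact permutation p = 0.103), and within age groups r = 0.984 (exact permutation p = 0.0833, the smallest that 12 orders allow). Without the mice farthest from the median ovary level, r was 0.555, 0.498 and 0.859 for lung, brain and uterus.

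Sexes could be compared in brain and lung at 8-8.7 mo for females and 7.6 mo for males. Read length may differ between these groups. Covered bases per read of UID-4915 reached 113.6 in the female brains (mouse 1337) and 83.5 in the male brains (mouse 1305). The read length of the male brains and of the lungs is not known. Whether read length contributes to the sex differences below was therefore not tested. In brain, 11% of 146 loci were called, and UID-4915 was not, with a log2 fold change of 1.77 ± 0.76 in females over males (edgeR adjusted p = 0.175). In lung, 16.4% of 110 loci were called, and UID-4915 was not, with a log2 fold change of -0.05 ± 0.34 (edgeR adjusted p = 0.963). The lung value depends on the scaling: male lungs held more L1 reads, and per L1 read the difference was 2.54 (edgeR adjusted p = 0.000488) in favour of females. That scaling also called far more of all loci than the 16.4% (the count is given at the end), so the call is not particular to UID-4915. UID-13421 had no read in brains or lungs of either sex.

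Among other L1 loci near the members, only one shared the pattern. UID-13420 is a separate entry next to UID-13421 in the same intron, whose window shares 1700 of its 2366 bp with that of UID-13421, so reads in the shared part were counted for both. It had 14 to 147 reads in the 12 livers and none in the other 56 libraries. The loci within 100 kb of UID-4915 were UID-4916 on the same strand, at a distance of 22817 bp, and UID-5026 on the opposite strand, and neither had a read in a liver.

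The 5 loci with the levels most like UID-13421 over the 68 libraries had Pearson r of 0.92 to 0.991 on the log2 scale. After UID-13420 came UID-6522 (r = 0.99), in the sense of Hsd3b3, a steroid dehydrogenase gene, and antisense to Zfp697, UID-14783 in Cfhr3 (r = 0.967), a gene of the complement factor H family, and UID-13064 and UID-13712, which overlap no annotated gene. For UID-4915 the highest r was 0.629, for UID-1212, which lies antisense in Cdkl4, followed by UID-13131 in Acnat1 (r = 0.618), UID-13420, UID-6522 and UID-13421 (r = 0.604). These values are descriptions, and the r of UID-13421 and its look-alikes is dominated by the libraries where all of them had no read.

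Other L1 loci in related host genes mostly had few liver reads. Of all 17019 loci, 0.582% had at least 10 reads in 3 livers, and the median locus had none. In the Cyp2j cluster, 5 loci lay in the sense of a gene, of which UID-13421 and UID-13420 reached that level, while UID-12933 in Cyp2j8 had a mean of 0.0322 RPM. In other cytochrome P450 genes, 4 of 7 sense loci did, at up to 1.11 RPM in livers (UID-13472 in Cyp4b1, with a mean of 3.11 RPM outside the liver), and 0 of 14 antisense loci did. In interferon-inducible GTPase genes, 1 of 5 sense loci did, UID-4915 itself at a mean of 86.8 RPM, whereas UID-14949 in Gbp8 and Gbp9, guanylate-binding proteins, had a mean of 0.0546 RPM in livers and 0.212 RPM elsewhere. In genes of hepatocytes, 2 of 4 sense loci did, of which UID-16457 in Ces1c, a liver carboxylesterase, had 5.94 ± 10.0 RPM (SD, n = 12) in livers with 2 to 650 reads (median 21), and 0 of 15 antisense loci did. None of these lists was tested, and the counts describe them only.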

How the data were processed

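Per the labels and methods, the authors made strand-specific libraries of cytoplasmic, polyadenylated RNA, aligned paired reads to mm10 with Bowtie, kept unique alignments without duplicates, and counted them in the orientation of each L1 window with bedtools. The deposited values are counts, each mate counted apart, and the fraction of the window covered. Repeated windows were used once. Mapped reads were recovered as the depth on which the reads of curated loci, divided by the FPKM (6 kb) tabulated for them in the supplement of the study, coincide within 0.01%. Depth rests on at least 3 loci in 62 of 68 libraries and on fewer in 6 livers, and ranged from 8.45 M to 51.4 M mapped reads. In 4 libraries it rests on a minority of the loci listed for them.

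The counts of every locus were fitted by edgeR's quasi-likelihood test (edgeR 4.0.16, R 4.3.3), and mapped reads served as library sizes. A locus entered with at least 10 reads in 3 livers or, elsewhere, in a number of libraries equal to the smaller group. Calls needed a Benjamini-Hochberg adjusted p under 0.05. The fit was tested on simulated data. Alternatives were DESeq2 1.42.0, TMM, L1 reads as depth, no filter, window length and single mice left out. Log2 levels used a pseudocount of 0.1 RPM. Permutation tests of relations were two-sided and exact, or used 100000 draws with 10 or more mice, and those of age groups took all splits. Python 3.11.15, scipy 1.17.1 and GENCODE M21 were used. Named loci were the members, loci within 100 kb or in the same genes, the 5 most alike, and loci of the host gene lists. Members and lists were chosen with earlier results of these data known. Rat libraries were left out. The p-values rest on the variation between these libraries only, and those of edgeR on the variation in all groups of a fit.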

Additional observations from a re-analysis of the deposited data

Results flagged for a closer look

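The ovary of mouse 1325, of 8-8.7 mo, covered 82.5% of the UID-4915 window, while the other 3 ovaries of its group covered 98.1 to 99.1%, so its gap to them was 0.936 of the range of the group. It held 120 reads against 319 to 584 in the others. Among 6 comparisons of this kind, in groups of 4, 1 met the limit, and chance meets it in about 1 in 20.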

How the results depend on the processing

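No paired analysis was possible because the age groups and the sexes hold different mice, and the comparison of organs within mice has no test. The age groups of livers held 3 libraries each, which limits the precision of these comparisons. With only the compared groups in the fit, UID-4915 (-1.52) and UID-13421 (-1.42) passed between 7.6 and 12.8 mo and UID-13421 (-1.80) between 7.6 and 22.3 mo; without mice 1110 and 830, chosen after seeing the data, UID-4915 (-1.52) passed between 7.6 and 12.8 mo. Leaving out single mice, that log2 change ranged from -1.69 to -1.40. The cause was not tested, and the share of all loci called in these fits between 7.6 and 12.8 mo is not given. The sex difference of UID-4915 in lung reversed to 0.44 with TMM, 2.54 per L1 read and 0.45 with DESeq2, and ranged from -0.17 to 0.083 leaving out single mice. Over 5 mice, the mean log2 ratio of liver to lung of UID-4915, 4.07, moved to 5.90 per L1 read and to 3.35 without the 12.8 mo mice, and the bound of UID-13421, 4.49, to 6.32 per L1 read. In females, leaving out single mice gave log2 changes of 2.07 to 3.23 in ovary and 2.08 to 2.97 in brain, and permutation p from 0.00714 to 0.232 in ovary, 0.019 to 0.282 in lung and 0.0381 to 0.196 in brain, which was 0.125 per L1 read; DESeq2 gave 1.43 in ovary. In the liver omnibus test, leaving out single mice gave permutation p from 0.0558 to 0.653 for UID-4915 and from 0.0995 to 0.582 for UID-13421. Counts of called loci moved from 2 to 18 with only the 22.3 and 7.6 mo livers, to 7 per L1 read and to 5 with DESeq2, from 18 to 64 per L1 read for the lung sexes, from 16 to 10 without a filter and to between 2 and 20 without single mice for the brain sexes (leaving out mouse 1324, 1325 or 1337 removed UID-4915 from the tested loci), from 0 to 2 without a filter and to 1 with 2 groups between the youngest and the 7.6 mo livers, from 40 to between 14 and 23 without one of the 12.8 mo livers, from 5 to 2 per L1 read and to 3 by TMM, DESeq2 or no filter in female lungs, from 0 to 10 with DESeq2 and to 1 by TMM in ovaries (up to 7 without single mice), and from 0 to 1 without a filter in female brains (up to 8 without mouse 1534). Depth joined by mouse number at 22.3 mo changed no call of UID-4915 or UID-13421 in livers.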
